A study of Mus musculus with 192 samples.

Results

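Fibroblasts can carry the machinery of a contractile cell to very different degrees, and here the single mouse embryonic fibroblasts with most of it were set against those with least. The cells were chosen by their measured values of 5 genes, Acta2, Tagln, Cnn1, Tpm2 and Myl9, whose tags at annotated start sites were added to a contractile score in each cell. Tags are given throughout as normalised tags, that is, scaled to 10000000 tags of the cell. Of the 192 cells of the series, 177 had enough tags to be ranked, and the ranking was made separately in 92 naïve and 85 pretreated cells. The 30 highest and 30 lowest naïve cells and the 28 highest and 28 lowest pretreated cells were compared, 116 cells in all. They are called contractile-high and contractile-low cells below, and the 32 naïve and 29 pretreated cells in between served no comparison. The cells were C57BL/6 embryonic fibroblasts, primary connective-tissue cells grown from mouse embryos and kept on uncoated plastic with serum. Single-cell start-site sequencing read the 5′ ends of their polyadenylated RNA. All cells of both groups had received interferon-beta at 100 U/ml for 1 h, so no cell without interferon enters any value. The pretreated group had a further, earlier treatment that its labels leave unnamed. No animal, culture or plate is given for any cell, so each set of cells counts as 1 sample. Cells are not replicates, and no difference below was tested.

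Acta2 encodes smooth muscle actin, the hallmark of myofibroblasts, which are fibroblasts that pull on their surroundings during wound repair and scarring. Myl9 is a regulatory light chain of myosin, Tpm2 a tropomyosin that lies along actin filaments, and Tagln (transgelin) and Cnn1 (calponin) bind those filaments. Many such genes are switched on by serum response factor (SRF), which binds a short DNA element called the CArG box. Its coactivators, the myocardin-related transcription factors (MRTFs), are held back by free actin monomers and released as actin is assembled into filaments. Stiff plastic and serum are well known to push cultured fibroblasts towards this state.

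The CArG box is written as 2 C, then 6 bases that are each A or T, then 2 G, and reads the same on both strands. The 250 bases before the RefSeq start (build GRCm38.p6, a later build than the mm9 of the files, with nothing converted between them) were searched for exact boxes and for CArG-like boxes with at least 5 A or T among the 6. Promoters of 4 of the 5 score genes were in the RefSeq table. Myl9 held 1 exact box at position -161 and 1 CArG-like box at -99, and Acta2 held 2 CArG-like boxes at -84 and -34, each position being that of the box's first base relative to the start. No box of either kind was found in the Cnn1 and Tpm2 windows. Exact boxes occurred in 1.47% of all 32851 promoters of the table, and exact or CArG-like ones in 8.59%. The sequences below run 5′ to 3′ on the strand of the gene, with the boxes in capitals. They are those of the score genes with a box and of 3 genes that varied with the score and held a box. The promoters of Tpm1, Tpm4 and Pdlim5 were searched too, held neither kind of box and are not printed. A match describes the letters and says nothing about binding.
Acta2, chr19:34255374-34255623, - strand: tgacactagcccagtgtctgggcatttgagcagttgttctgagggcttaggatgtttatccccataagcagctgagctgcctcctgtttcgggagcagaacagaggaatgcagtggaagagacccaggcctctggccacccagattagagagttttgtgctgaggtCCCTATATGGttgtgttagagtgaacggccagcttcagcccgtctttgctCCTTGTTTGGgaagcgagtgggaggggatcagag
Myl9, chr2:156775214-156775463, + strand: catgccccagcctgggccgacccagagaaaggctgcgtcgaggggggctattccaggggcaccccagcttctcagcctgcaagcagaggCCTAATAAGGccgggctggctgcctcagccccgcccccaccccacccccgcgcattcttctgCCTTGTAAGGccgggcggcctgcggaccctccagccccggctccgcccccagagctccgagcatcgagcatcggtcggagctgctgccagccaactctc
Vcl, chr14:20929148-20929397, + strand: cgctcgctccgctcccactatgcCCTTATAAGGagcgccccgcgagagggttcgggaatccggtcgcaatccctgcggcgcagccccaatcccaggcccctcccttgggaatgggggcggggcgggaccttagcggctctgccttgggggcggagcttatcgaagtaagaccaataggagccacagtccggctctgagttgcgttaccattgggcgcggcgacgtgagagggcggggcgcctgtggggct
Cnn2, chr10:79988350-79988599, + strand: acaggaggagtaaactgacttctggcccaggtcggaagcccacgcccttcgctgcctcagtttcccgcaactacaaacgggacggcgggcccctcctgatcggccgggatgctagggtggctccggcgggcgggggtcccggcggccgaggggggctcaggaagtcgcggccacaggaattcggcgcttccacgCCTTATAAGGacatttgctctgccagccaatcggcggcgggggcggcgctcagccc
Dstn, chr2:143915081-143915330, + strand: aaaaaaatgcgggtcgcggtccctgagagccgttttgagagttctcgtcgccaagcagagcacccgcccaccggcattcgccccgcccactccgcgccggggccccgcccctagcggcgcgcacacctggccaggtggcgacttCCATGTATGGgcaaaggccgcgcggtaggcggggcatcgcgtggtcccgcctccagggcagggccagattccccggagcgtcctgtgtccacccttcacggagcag

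The score was the sum of the 5 genes' normalised tags. It ran from 15654 to 43024 in contractile-high naïve cells, with a median of 23329, and from 0 to 7661 in contractile-low ones, with a median of 4540. In pretreated cells it ran from 15644 to 137690 in the high cells, with a median of 26096, and from 0 to 5233 in the low cells, with a median of 2145. Just outside the naïve sets lay cells with scores of 15454 and 7710, and just outside the pretreated sets 14990 and 5575, so the borders cut through a continuous range. The upper border was nearly the same in both groups, while the highest pretreated score was far above the highest naïve one.

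Different genes carried the score in the 2 groups. Over all ranked naïve cells Tagln supplied 39.2% of the summed score, Myl9 24.6%, Acta2 17.4%, Cnn1 12.3% and Tpm2 6.51%. Over all ranked pretreated cells Acta2 alone supplied 62.5%, Myl9 15.9%, Tagln 13.7%, Tpm2 5.99% and Cnn1 1.90%. Acta2 supplied 64.1% of the score of the high pretreated cells, but 39.8% of that of the low ones, where Tpm2 supplied 30.3%. When pretreated cells were ranked without Acta2, 22 of 28 high and 21 of 28 low cells stayed in their sets. Acta2 thus led the summed pretreated score, but the order of the cells did not rest on it alone. The score counts windows within 1000 bp of a start only. Windows beyond 1000 bp held 60.3% of the Acta2 tags of high naïve cells and 11.3% of those of high pretreated cells.

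Since the 5 genes set the ranking, their own values are a description of the sets. Acta2 ranged from 1388 to 8048 normalised tags in contractile-high naïve cells (median 3718) and from 0 to 3150 in contractile-low ones (median 1053). Pretreated values ran from 5878 to 86782 (median 18693) in the high cells and from 0 to 3645 (median 535) in the low ones. The pretreated sets did not overlap in Acta2, and the naïve sets did. Tagln ranged from 2926 to 22765 (median 9182) in high and from 0 to 5487 (median 1371) in low naïve cells. It ranged from 0 to 21921 (median 4050) in high and from 0 to 1250 (median 0) in low pretreated cells. Tagln was thus listed in all 30 high naïve cells, and in 25 of 28 high pretreated cells.

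Myl9 ranged from 0 to 19101 (median 4016) in high and from 0 to 3071 (median 379) in low naïve cells, and from 0 to 25145 (median 4987) and from 0 to 1751 (median 0) in the pretreated sets. Cnn1 was listed in 26 of 30 high and 14 of 30 low naïve cells, with medians of 3364 and 0. It was listed in only 12 of 28 high and 2 of 28 low pretreated cells. Calponin tags were therefore common among contractile-high cells of the naïve group and a minority feature among those of the pretreated group. Tpm2 separated the sets least, with medians of 1045 and 218 in the naïve and 1298 and 502 in the pretreated sets.

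**Figure D1:**
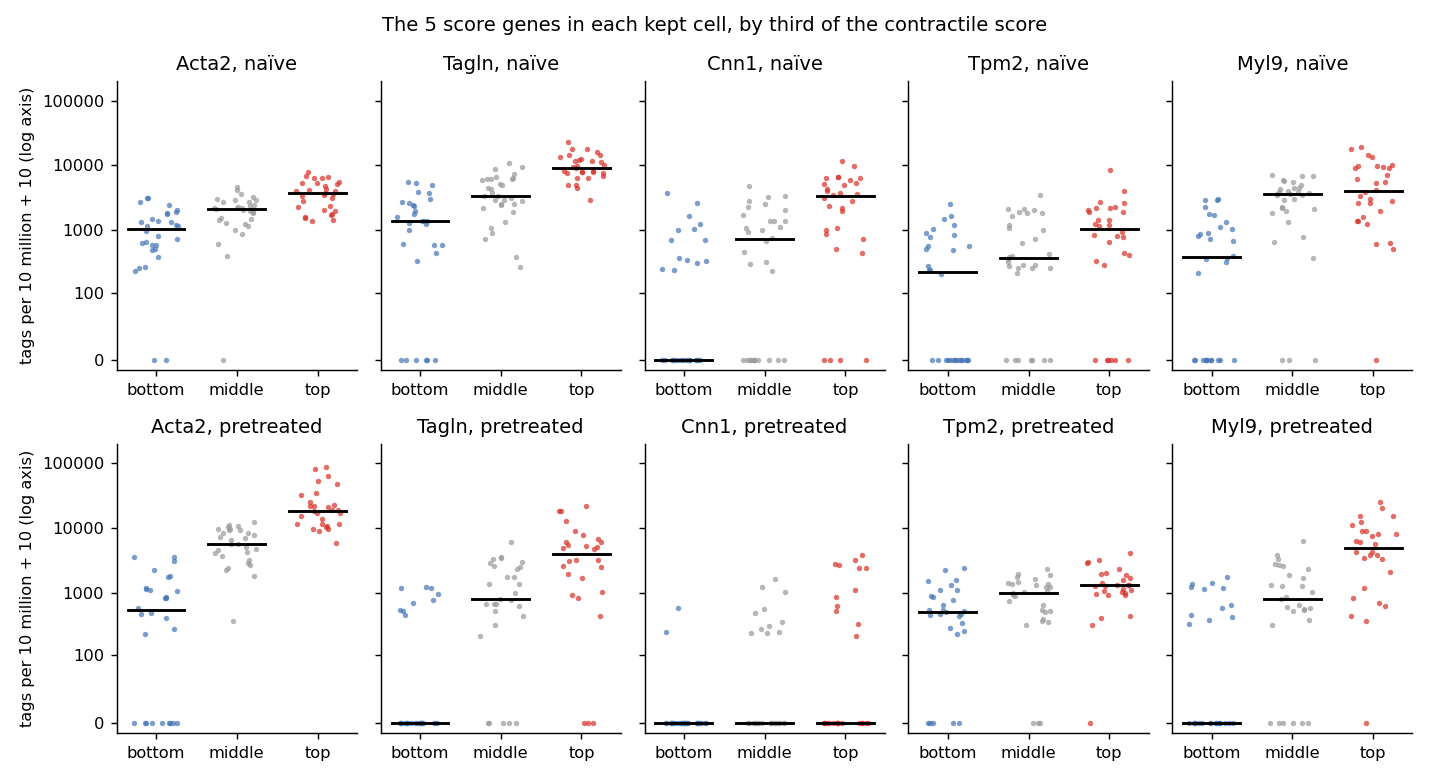
Normalised tags plus 10, on a log axis, for each score gene in each ranked cell, by low, middle and high cells, with naïve cells above and pretreated cells below. Points are cells and black lines medians; Acta2 in pretreated cells climbs from a median of 535 in the low cells to 18693 in the high cells, and most Cnn1 values of pretreated cells lie at 0.

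The genes were also examined one at a time without their own part in the ranking. Cells were ranked anew by the other 4 genes, and the left-out gene was compared between the highest and lowest cells of that ranking. In this report a log2 ratio is that of the mean of the high cells to the mean of the low cells, with 10 normalised tags added to each mean. In naïve cells the ratio was 2.37 for Cnn1, 1.46 for Myl9, 1.43 for Acta2, 1.43 for Tagln and 1.11 for Tpm2. In pretreated cells it was 3.76 for Cnn1, 3.33 for Myl9, 3.14 for Tagln, 3.09 for Acta2 and 0.93 for Tpm2. Each left-out gene was thus higher where the other 4 were high, Tpm2 least of all. For naïve Tpm2 the ratio dropped below 2-fold, to 0.82, without naïve cell 18. Left-out Acta2 in pretreated cells ranged from 1818 to 86782 (median 14213) in the high cells and from 0 to 13774 (median 980) in the low cells, so these sets overlapped.

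Across all ranked cells, pairs of score genes varied together to unequal degrees. Spearman's rho of Acta2 with Tagln was 0.51 over 92 naïve and 0.60 over 85 pretreated cells, and that of Acta2 with Myl9 was 0.39 and 0.64. Tpm2 and Myl9 gave 0.03 and 0.22. These coefficients describe cells whose values all share the scaling to the total tags of the cell. The score itself had a rho of 0.05 with the total tags in naïve and 0.09 in pretreated cells, and of 0.05 and 0.24 with the number of genes listed.

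The libraries of the compared sets were similar in median size, but the shallowest of each group lay in the low sets. Median total tags were 2346332 in high and 2089507 in low naïve cells, and 2717335 in high and 2316375 in low pretreated cells, within a range of 305066 to 13174313. The smallest high library had 900082 tags in naïve and 1286958 in pretreated cells, and the smallest low one 305066 and 502374. The median number of genes listed was 1959 and 1934.5 in the naïve sets and 3039 and 2889.5 in the pretreated sets. A tag is a read and not a molecule, and intervals below cover counting error only. Among ranked cells 2 libraries stood apart, both of them contractile-low. Naïve cell 31 had 8.96% and pretreated cell 93 had 10.3% of their tags in the gene windows, against at least 32.5% in every other ranked cell, and they listed 506 and 634 genes. Main results were also computed without these 2 cells, and the values that moved are given beside them. For the left-out score genes the median ratio was 1.43 with and 1.31 without naïve cell 31, and 3.14 with and 2.95 without pretreated cell 93, where Tagln alone was at 2.86.

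Within 1000 bp of annotated starts, the tags of the score genes came from few windows, with Tpm2 as an exception. Every share in this paragraph is of the gene's tags within 1000 bp of a start, not of all its tags. Acta2 tags of naïve cells came mostly (85.4%) from the window at chr19:34329752-34329901 (mm9), 37 bp from the annotated start, and those of pretreated cells (99.4%) from the window at chr19:34329750-34329899, 2 bp away. Within 50 bp of the naïve window lay 98.4% of naïve Acta2 tags, and 100% of those of the high against 89.9% of those of the low naïve cells. Tagln tags came from chr9:45743905-45744054, annotated as 5′ UTR and 162 bp from the start, for 94.7% in naïve and 96.9% in pretreated cells. Cnn1 tags came from chr9:21903650-21903799, 27 bp from the start, for 89.9% and 83.8%. Myl9 used windows at chr2:156601086-156601235 and chr2:156601113-156601262. Tpm2 was spread over 17 windows in high and 14 in low naïve cells, its leading window at chr4:43536262-43536411 holding 23.8% of naïve tags. Within 1000 bp, high and low cells therefore used the same main start regions of Acta2 and Tagln, with shares in low cells resting on few tags.

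The same genes also had tags in windows more than 1000 bp from an annotated start, which the score did not use. Acta2 averaged 5849 normalised tags there in high and 1861 in low naïve cells, and 3301 against 258 in pretreated cells. Such windows held 60.3% of the Acta2 tags of high naïve cells and 11.3% of those of high pretreated cells. Tagln averaged 1737 against 302 in the naïve and 727 against 108 in the pretreated sets, and Myl9 2026 against 486 and 1412 against 175. Beyond 1000 bp these 3 genes were thus higher in contractile-high cells of both groups, while their windows within 1000 bp had ranked the cells. Tpm2 averaged 1019 against 462 in naïve cells, but 730 against 1390 in pretreated cells, where the log2 ratio was -0.92. Without pretreated cell 12 it was -0.51. Cnn1 had few such tags, 51.1 against 70.6 in naïve cells, and 70.1 in high pretreated cells while it was listed at 0 in the low ones.

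**Figure D2:**
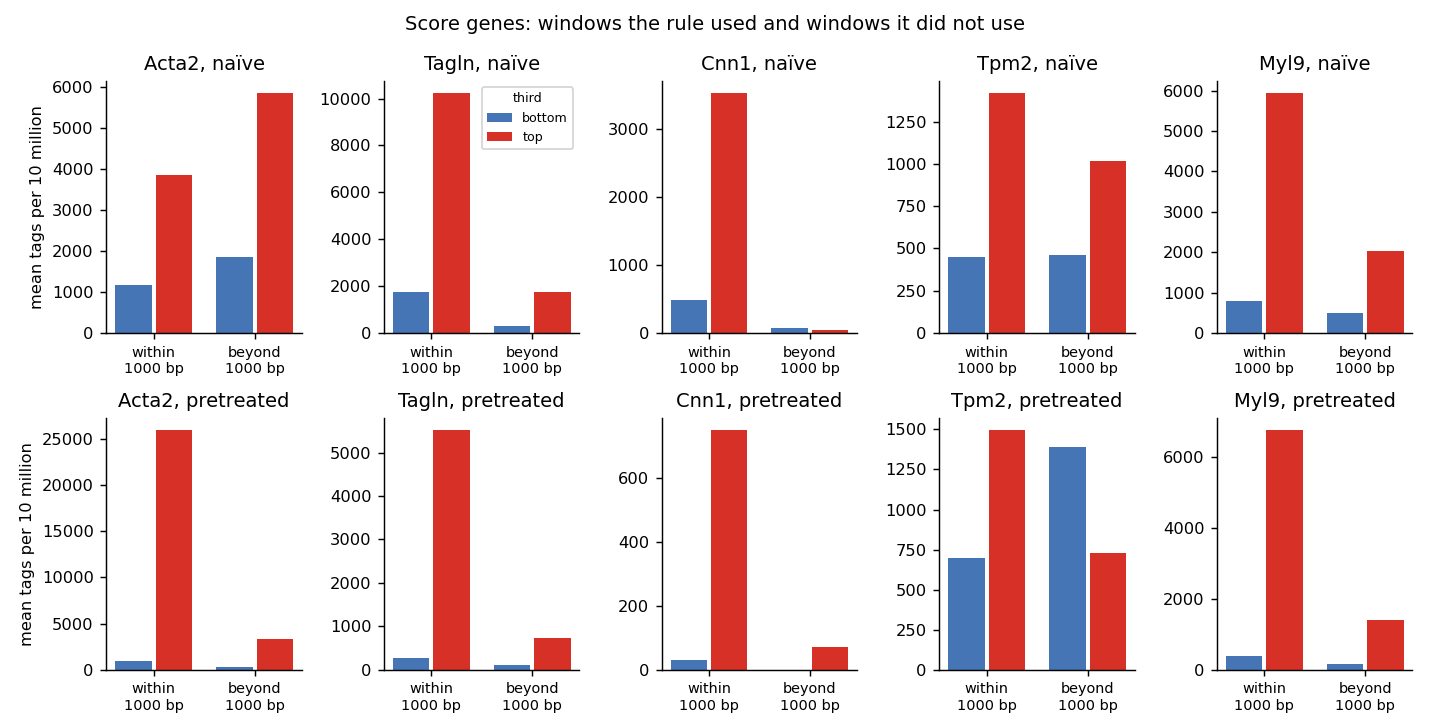
Mean normalised tags of each score gene in windows within 1000 bp of an annotated start, which made the score, and beyond 1000 bp, which did not. Bars are means over contractile-low (blue) and contractile-high (red) cells, with naïve cells above and pretreated cells below; Tpm2 beyond 1000 bp in pretreated cells is the lower of its pair in the high cells (730 against 1390).

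Outside the score genes, 2681 genes passed the filter in naïve cells and 3401 in pretreated cells. The filter asked for a mean of at least 200 normalised tags over all ranked cells of the group and for tags in 20% or more of these cells. At least 2-fold higher in contractile-high cells were 210 naïve genes (7.83%) and 147 pretreated genes (4.32%). At least 2-fold lower were 185 naïve genes (6.90%) and 164 pretreated genes (4.82%). The median log2 ratio was 0.01 in naïve and 0.00 in pretreated cells. Many of these differences rested on 1 cell: leaving out a single cell ended the 2-fold difference for 213 of 395 naïve and 178 of 311 pretreated genes. Of 2448 genes that passed in both groups, 20 (0.817%) were at least 2-fold higher and 8 (0.327%) at least 2-fold lower in both, and 15 were 2-fold apart in opposite directions. Across these genes the ratios of the 2 groups had a Spearman's rho of 0.05. The order of all genes by their ratio in one group thus said little about their order in the other.

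**Figure D3:**
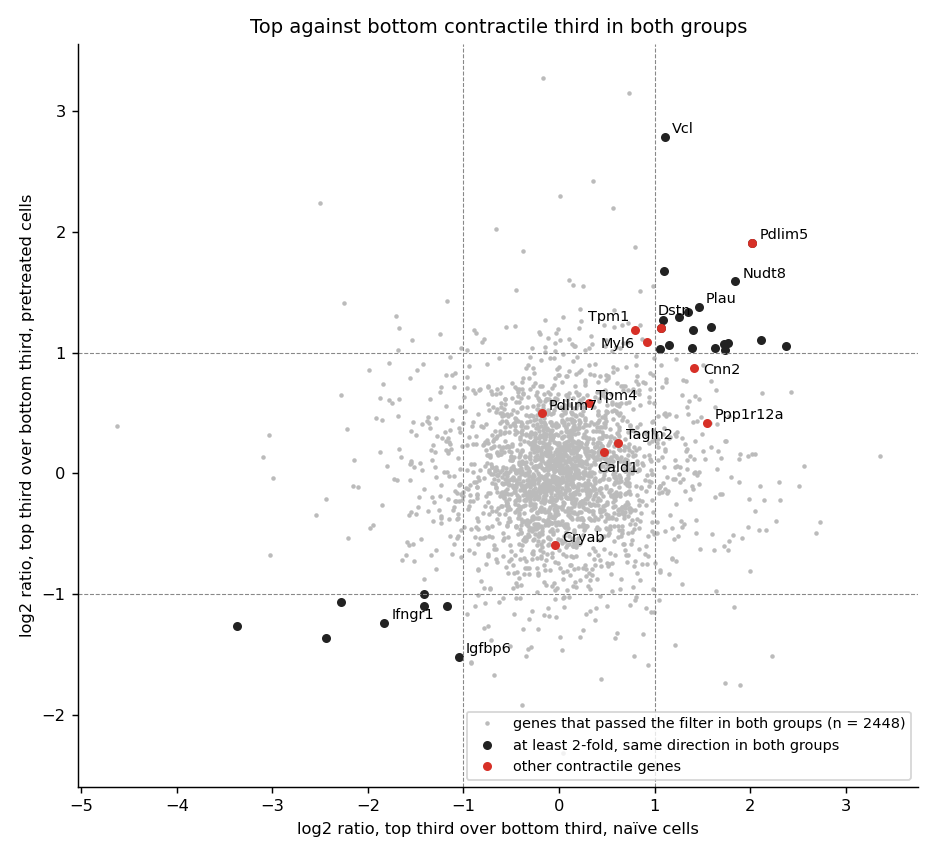
Log2 ratio of contractile-high over contractile-low cells in naïve cells (x axis) and pretreated cells (y axis) for the 2448 genes that passed the filter in both groups, with dashed lines at 2-fold. The other contractile genes (red) lie mostly to the upper right, Pdlim5 farthest at 2.02 and 1.91, while the cloud as a whole has no slant (rho 0.05).

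Contractile genes outside the score were mostly higher in contractile-high cells. Of a list of 30 genes for smooth muscle and myofibroblast proteins, 11 passed the filter in naïve cells, and 4 of them were at least 2-fold higher and none 2-fold lower, with a median log2 ratio of 0.79. In pretreated cells 12 passed, with 4 higher, none lower and a median of 0.54. Over all genes the medians were 0.01 and 0.00, and the shares 2-fold higher 7.83% and 4.32%. Without the 2 libraries that stood apart the counts were again 4 of 11 and 4 of 12, and the medians 0.75 and 0.42.

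Pdlim5, a PDZ and LIM protein that links actin-bound alpha-actinin to signalling proteins, was among the genes highest in both groups. It was listed in 10 of 30 high and 7 of 30 low naïve cells, with maxima of 4699 and 1690 normalised tags and means of 619.9 and 145. Among pretreated cells 18 of 28 high and 6 of 28 low cells had Pdlim5 tags, with medians of 457 and 0 and means of 830.1 and 214. The 2 naïve sums were 3628 tags (95% exact Poisson interval 3511 to 3748) and 411 tags (372 to 453), and the pretreated sums 7756 (7584 to 7931) and 1317 (1247 to 1390). The log2 ratios of 2.02 and 1.91 stayed above 2-fold without the most influential cell, at 1.66 without naïve cell 42 and 1.6 without pretreated cell 61. Without pretreated cell 93 the pretreated ratio was 1.53. Between the upper and lower of 2 equal parts the ratios were under 2-fold, at 0.60 in naïve and 0.91 in pretreated cells. Most naïve cells of both sets had no Pdlim5 tag, so in that group the difference lies in a minority of cells.

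Dstn (destrin), which severs and depolymerises actin filaments, ranged from 1090 to 26738 normalised tags (median 6278) in high and from 0 to 12921 (median 2981) in low naïve cells. Pretreated values ran from 886 to 30268 (median 8085) in high and from 0 to 22934 (median 2665) in low cells. The sets overlapped widely, yet both medians were more than 2-fold apart. Its log2 ratios were 1.07 and 1.20, and 0.94 without naïve cell 18. Cnn2, the calponin of non-muscle cells, had medians of 4962 and 1494 in the naïve sets and of 10714 and 6185 in the pretreated sets. Its ratios were 1.41 and 0.87. The naïve Cnn2 ratio was 1.00, at the 2-fold border, once naïve cell 31 was left out of the ranking.

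Myl6, the essential light chain that pairs with Myl9-type chains on myosin, had medians of 8009 and 4893 in the naïve and 4273 and 1739 in the pretreated sets, with log2 ratios of 0.93 and 1.09. Tpm1, a tropomyosin far more abundant here than Tpm2, had medians of 25036 and 13905 and of 31211 and 11676, with ratios of 0.79 and 1.19. Tpm4, a tropomyosin of non-muscle cells, gave smaller ratios of 0.32 and 0.58. Ppp1r12a, the targeting subunit of myosin phosphatase, which relaxes myosin, was at 1.55 in naïve and 0.42 in pretreated cells, the latter 0.16 without pretreated cell 93 and -0.44 when the upper and lower of 2 equal parts were compared. Caldesmon (Cald1) gave 0.47 and 0.18 and Tagln2 0.62 and 0.25, both under 2-fold. Cryab, a small chaperone of muscle, was at -0.04 and -0.60, and the naïve value ran from -0.29 to 0.57 over the alternatives tried. In windows beyond 1000 bp, which lie apart from the values above, these genes did not follow one pattern. There Tpm1 gave 0.80 and 0.84 and Dstn 0.39 and 0.91. Tpm4 gave -0.47 and -1.03, Pdlim5 0.05 and -0.12, and Cald1 0.60 and -0.75. Pretreated Tpm4 means were low, at 26.5 in high and 64.3 in low cells. Without the highest cell of the higher set, Tpm1 gave 0.68 and 0.72 and Dstn 0.30 and 0.69. Tpm4 then gave -0.11 and -0.71, and Cald1 0.25 and -0.49. Pdlim5 turned sign in both groups, to -0.62 and 0.27.

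Stress fibre and focal adhesion genes differed less evenly. Stress fibres are bundles of actin and non-muscle myosin, and focal adhesions tie them to the matrix. Of 30 listed genes, 12 passed in naïve cells (2 at least 2-fold higher, none lower, median 0.56) and 15 in pretreated cells (4 higher, 1 lower, median 0.07). Without pretreated cell 93 there were 3 higher and 1 lower, with a median of -0.02. The shares over all genes were 7.83% higher and 6.90% lower in naïve cells, and 4.32% and 4.82% in pretreated cells. Vcl (vinculin), which couples adhesions to actin, was higher in both groups. It was listed in 23 of 30 high and 12 of 30 low naïve cells, with medians of 1298 and 0 normalised tags and a highest low cell of 10775. Vinculin tags were found in 20 of 28 high and 7 of 28 low pretreated cells, with medians of 1051 and 0, and a highest low cell of 1185.5. The log2 ratios were 1.10 and 2.79, and the naïve one was 0.96 without naïve cell 42. Vinculin tags beyond 1000 bp did not follow, at -0.82 and -1.05. These means depended on the libraries that stood apart, since they were 0.35 without naïve cell 31 and 3.64 without pretreated cell 93.

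Other members of these structures were higher in 1 group only by this measure, and the difference between the groups was not tested. In pretreated cells the actin crosslinkers Flna (1.41) and Actn4 (1.10) and the adhesion protein Lpp (1.85) were at least 2-fold higher in contractile-high cells, and none of the 3 passed the filter in naïve cells. Actn4 was at 0.90 without pretreated cell 94. Ilk, the integrin-linked kinase of adhesions, was at 1.62 in naïve cells and -0.63 in pretreated cells, the latter -0.08 without pretreated cell 18. Tln1 (talin), which activates integrins, was at -1.62 in pretreated cells. The non-muscle myosin heavy chain Myh9 hardly differed, at 0.14 and -0.24. The light chain Myl12a gave 0.39 and 0.42 and Myl12b, its close copy, -0.44 and -0.93. A higher contractile score therefore did not go with more of every myosin gene.

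Among 20 genes for cytosolic actins and actin-binding proteins, 16 passed in each group. None was 2-fold higher and 1 lower in naïve cells (median 0.16), and 3 were higher and none lower in pretreated cells (median 0.31). Among all genes 7.83% were higher and 6.90% lower in naïve cells, and 4.32% and 4.82% in pretreated cells. Actb, the main cytosolic actin, ranged from 35994 to 185738 normalised tags (median 90499) in high and from 4360 to 101436 (median 54824) in low naïve cells. In pretreated cells it ranged from 16162 to 93876 (median 38406) in high and from 1094 to 42707 (median 18938) in low cells. The ratios were 0.70 and 1.08, with wide overlap of the sets. Tmsb4x, the thymosin that sequesters actin monomers, had pretreated medians of 5049 in high and 1162 in low cells and a ratio of 2.20, against 0.56 in naïve cells. Arpc5, a subunit of the complex that branches actin filaments, gave 1.21 in pretreated and 0.57 in naïve cells. Cofilin (Cfl1) gave 0.07 and 0.38 and profilin (Pfn1) 0.40 and 0.25. The 1 gene lower in naïve cells was Twf1 (twinfilin), at -2.11 and at -1.55 without naïve cell 54. Actb, Tmsb4x and Myl6 have near-identical processed copies in the genome, so their values are uncertain where reads were shared among copies.

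Known targets of SRF and MRTF, other than the score genes, are described next. Of 26 listed genes, many of them also in the lists above, 10 passed in naïve cells, with 2 at least 2-fold higher (Cnn2 and Vcl), none lower and a median of 0.53. In pretreated cells 13 passed, with 4 higher (Actb, Flna, Tpm1 and Vcl), none lower and a median of 0.65. Over all genes 7.83% were higher in naïve and 4.32% in pretreated cells, against these 2 of 10 and 4 of 13. Ccn1, a matrix-associated signal protein, gave 0.46 and 0.65, and Fhl2, a LIM-domain cofactor, -0.16 and 0.43. The Vcl and Cnn2 promoters printed above each held 1 exact CArG box, at -227 and -56, and the Dstn promoter 1 CArG-like box at -106. The promoters of Tpm1, Tpm4 and Pdlim5 in the table held neither kind of box. Of the 16 genes higher in both groups that had a promoter in the table, 1 held an exact box and 5 held a box of either kind. Among promoters of all genes that passed the filter in a group, 1.13% held an exact and 7.85% either kind.

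**Figure D4:**
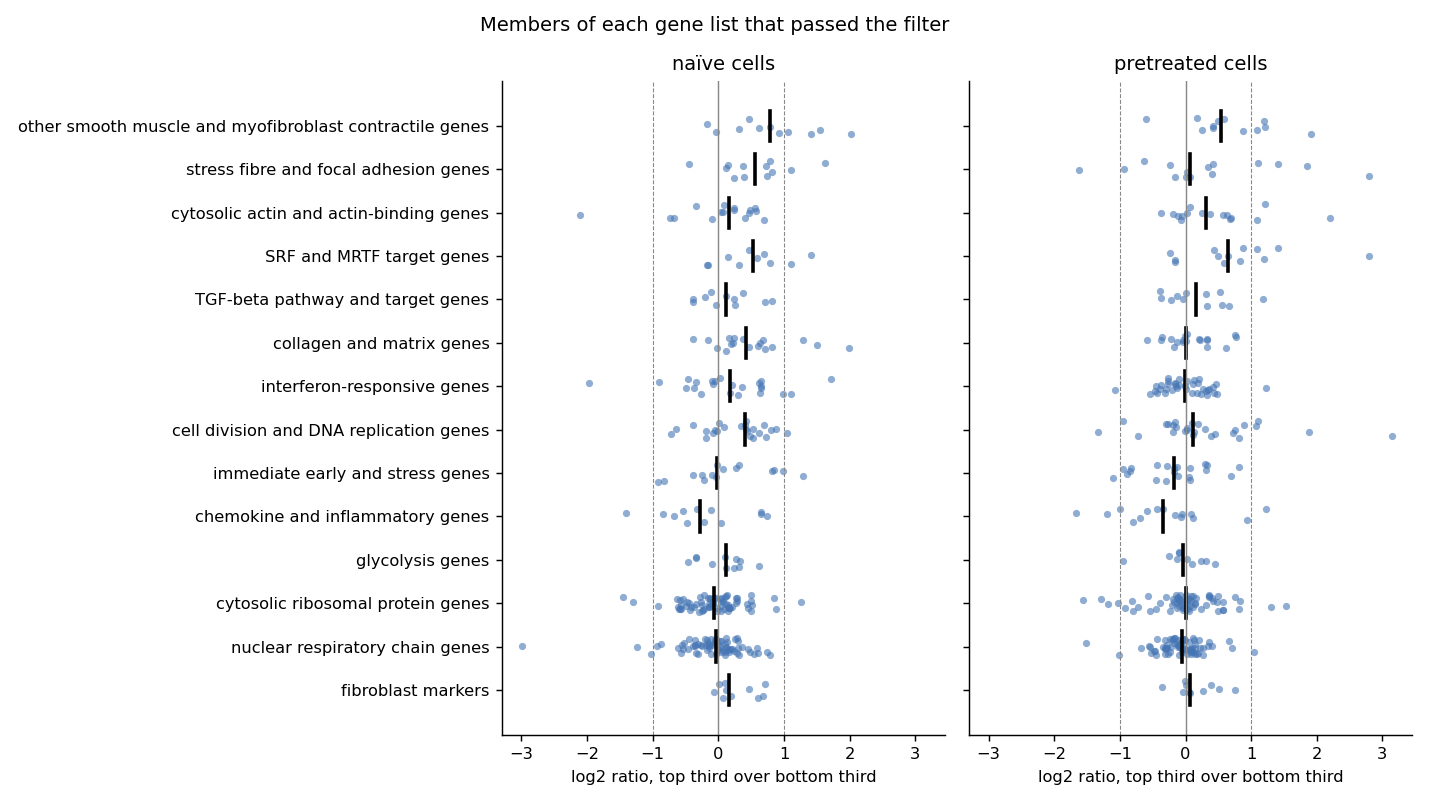
Log2 ratio of contractile-high over contractile-low cells for each member of a gene list that passed the filter, naïve cells on the left and pretreated cells on the right; points are genes, black bars the list medians, and dashed lines 2-fold. The other contractile genes have the largest naïve median (0.79) of the lists drawn, the SRF and MRTF targets the largest pretreated one (0.65), and the fibroblast markers lie near 0.

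The genes most like the score across cells included several of the contractile and actin lists. Ranked by the lower of the 2 groups' Spearman's rho with the score, the first were Actb (0.46 over 92 naïve and 0.62 over 85 pretreated cells), Tpm1 (0.45 and 0.54), Cnn2 (0.44 and 0.48), Myl6 (0.44 and 0.50) and Dstn (0.43 and 0.59). Abracl, a small actin-associated protein of the costars family, followed with 0.39 and 0.37, then Vcl (0.36 and 0.57), Rsu1 (0.33 and 0.48), Msmo1 (0.37 and 0.30) and Cbr2 (0.31 and 0.29). Of these 10, 6 are in the contractile, adhesion or actin lists, and Abracl, Rsu1, Msmo1 and Cbr2 are in none. Values of all genes in a cell share its scaling and its depth, and the coefficients are descriptions.

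**Figure D5:**
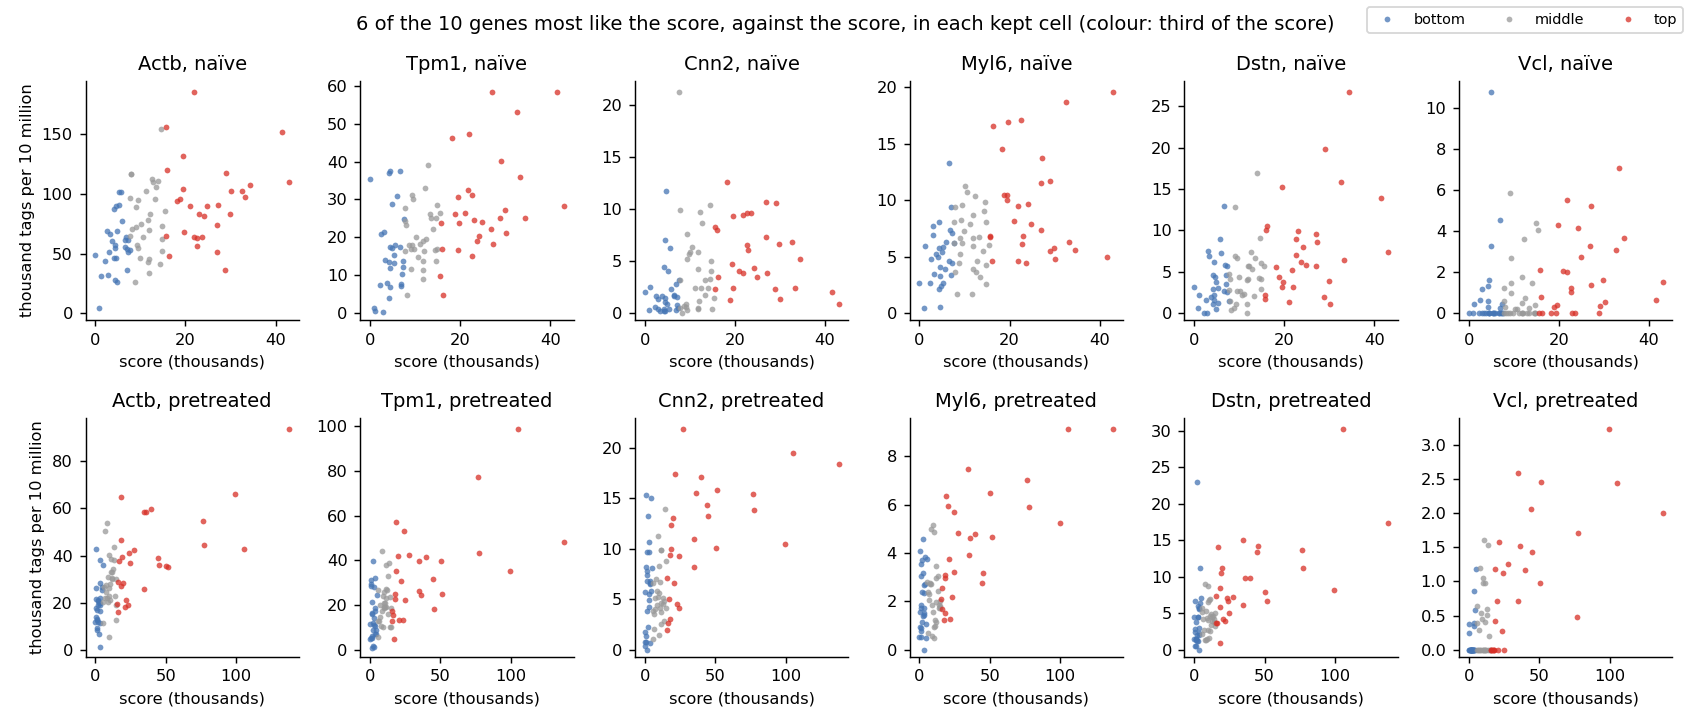
Normalised tags of 6 genes against the contractile score, both in units of 1000, for each ranked naïve cell (above) and pretreated cell (below), with low, middle and high cells in blue, grey and red. Actb and Dstn climb with the score in both groups (rho 0.46 and 0.62 for Actb), with wide scatter at any one score.

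Rsu1, an adhesion protein that binds the complex of integrin-linked kinase, was listed in 29 of 30 high and 21 of 30 low naïve cells (medians 2465 and 682 normalised tags) and in 27 and 22 of 28 pretreated cells (medians 2060 and 705). Its log2 ratios were 1.09 and 1.27, and 0.97 without naïve cell 60. Nudt8, a mitochondrial hydrolase of nucleotide-like molecules, was the other gene besides Pdlim5 that stayed at least 2-fold higher in both groups without its most influential cell. It was listed in 10 of 30 high and 4 of 30 low naïve cells and in 19 and 8 of 28 pretreated cells, and its ratios were 1.85 and 1.59, the latter 0.72 when deeper and shallower cells were ranked separately. Plau (urokinase, a secreted protease) gave 1.46 and 1.38, but 0.78 without naïve cell 79. Msmo1, an enzyme of cholesterol synthesis, gave 1.40 (1.11 without naïve cell 31) and 1.19, and 0.98 without pretreated cell 27.

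The other genes higher in both groups depended on 1 cell in at least 1 group. Dctn6 (dynactin subunit) gave 2.11 (1.65 without naïve cell 31) and 1.11, and 0.93 without pretreated cell 25. Parp1 (DNA damage sensor) gave 1.35 and 1.34, and 0.94 without naïve cell 51. Exosc10 (RNA exosome) gave 1.77 and 1.08, and 0.90 without pretreated cell 14. Cib1 (calcium and integrin binding) gave 1.10 and 1.67, but -0.26 without naïve cell 44. Rpl10 gave 1.26 and 1.30, but -0.04 without naïve cell 29 and 0.95 without naïve cell 31, and like other ribosomal protein genes it has near-identical copies. Snord15b, a small nucleolar RNA inside the gene Rps3 whose tags cannot be told from those of that host, gave 1.59 and 1.21, but 0.41 without naïve cell 34 and 0.48 in pretreated cells without pretreated cell 93. Without the 2 libraries that stood apart, 10 of the 20 genes remained at least 2-fold higher in both groups, Pdlim5, Nudt8, Plau, Msmo1, Vcl, Dstn, Dctn6 and Cib1 among them, and no further gene joined. Rsu1 was then at 0.99 in naïve cells and Parp1 at 0.89.

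Lower in contractile-high cells of both groups was Ifngr1, the ligand-binding chain of the receptor for interferon-gamma. It was listed in 7 of 30 high and 9 of 30 low naïve cells, with means of 138 and 516 normalised tags, and in 10 and 13 of 28 pretreated cells, with means of 209.5 and 507. Its log2 ratios were -1.83 and -1.24, and stayed past 2-fold at -1.50 without naïve cell 86 and -1.06 without pretreated cell 66. They were under 2-fold, however, at -0.65 in naïve cells with at least 50% of the median tags and at -0.75 in pretreated cells ranked by a score of mean ranks. Igfbp6, a secreted binder of insulin-like growth factor, had naïve medians of 122 in high and 467 in low cells and pretreated medians of 654 and 1639. Its ratios were -1.05 and -1.52, the naïve one -0.86 without naïve cell 37. Mmp3 (stromelysin, a matrix-degrading protease) gave -1.41 and -1.0, and -0.65 without naïve cell 14. Mpg, a DNA repair glycosylase, gave -1.42 and -1.10, and -0.95 without pretreated cell 78.

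Among the remaining 4, Ddrgk1 gave -2.44 and -1.36, but 0.10 without naïve cell 39 and -0.04 without pretreated cell 18. Ttc3, a ubiquitin ligase, gave -3.37 (-2.82 without naïve cell 31) and -1.26, and -0.63 without pretreated cell 18. Crcp gave -1.18 and -1.10, and -0.41 without naïve cell 69. U2af1l4, a splicing factor gene, gave -2.28 and -1.06, and -0.83 without pretreated cell 5. Without the 2 libraries that stood apart, 7 of the 8 genes still passed the filter and lay at least 2-fold lower in both groups. The counts of shared genes were then 10 higher and 7 lower, against 20 and 8 with all cells, and over all RefSeq windows they were 20 and 28. None of the 8 is in the contractile list.

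Genes for the extracellular matrix, which myofibroblasts are known to secrete, were mostly higher in contractile-high naïve cells, but about evenly divided in pretreated cells. Of 40 collagen and matrix genes 18 passed in naïve cells, with a log2 ratio above 0 in 15 and below 0 in 3. Their median was 0.42, and 3 were at least 2-fold higher and none lower, against 7.83% and 6.90% of all genes. In pretreated cells 19 passed, 10 above and 9 below 0, with a median of 0.01. None of these was 2-fold apart, against 4.32% higher and 4.82% lower over all genes. The 3 higher naïve genes were Fbln5 (fibulin, an elastic-fibre protein, 1.99), Mmp2 (a matrix protease, 1.5) and Serpinh1 (the collagen chaperone, 1.30). Mmp2 was at 0.70 without naïve cell 29 and Serpinh1 at 0.87 without naïve cell 44. The abundant matrix protein Sparc gave 0.47 and -0.01. TGF-beta is the best known inducer of Acta2 in fibroblasts. Of 30 genes of its pathway and targets, 11 and 12 passed, none was 2-fold apart in naïve cells and only Smad2, a signal carrier, in pretreated cells (1.19, and 0.84 without pretreated cell 68). The medians were 0.12 and 0.16, and -0.06 in naïve cells without naïve cell 31.

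The interferon response did not differ in step with the contractile score. Of 50 interferon-responsive genes, 23 passed in naïve cells (2 at least 2-fold higher, 1 lower, median 0.18) and 39 in pretreated cells (1 higher, 1 lower, median -0.01). For this and the next 2 lists, the shares over all genes were 7.83% higher and 6.90% lower in naïve cells. In pretreated cells these shares were 4.32% and 4.82%. The higher interferon-responsive genes were Samhd1 (1.71) and Lgals9 (1.11, and 0.90 without naïve cell 6) in naïve cells. The chemokine Cxcl10 was the higher one in pretreated cells, at 1.23 and at 0.81 without pretreated cell 21, and no interferon-responsive gene was 2-fold higher there without pretreated cell 93. Tapbp was lower in naïve cells (-1.98, and -0.61 without naïve cell 73) and Oas2 in pretreated cells (-1.07, and -0.83 without pretreated cell 78). Usp18, a strongly induced regulator, gave 0.62 and 0.36. Chemokine and inflammatory genes had medians of -0.28 over 12 naïve and -0.34 over 15 pretreated genes. Of these, 1 was higher (Cxcl10, counted above) and 3 were lower in pretreated cells: Ptges (-1.67), which makes prostaglandin E, Il6 (-1.20) and Mmp3. Only 1 of these 3 stayed 2-fold lower without its highest contractile-low cell. Mmp3 did not, at -0.63 without pretreated cell 28. Immediate early and stress genes had medians of -0.02 and -0.17, with Atf4 higher in naïve cells (1.29, and 0.91 without naïve cell 29) and Txnrd1 lower in pretreated cells (-1.11, but 0.69 without pretreated cell 82).

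Cell division genes were not uniformly different. In naïve cells 1 of 24 was at least 2-fold higher, Rrm1, which makes DNA building blocks (1.05, and 0.78 without naïve cell 9), and the median was 0.41, or 0.29 without naïve cell 31. In pretreated cells 4 of 27 were higher and 1 lower, with a median of 0.12. Of all genes 7.83% were higher in naïve cells, and 4.32% were higher and 4.82% lower in pretreated cells. The 4 higher in pretreated cells were Hmgb2 (3.15), Rrm2 (1.87), Gmnn (1.11, and 0.93 without pretreated cell 25) and Cdk1 (1.07, and 0.86 without pretreated cell 51). Stmn1 was lower, at -1.33 and at -0.47 without pretreated cell 18. Top2a, a marker of dividing cells, gave 0.52 and 0.12. The cytosolic ribosomal protein genes had medians of -0.07 (70 genes) and 0.00 (67 genes), the nuclear respiratory chain genes -0.03 and -0.05 (74 genes each) and glycolysis genes 0.11 and -0.04.

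Markers of the labelled cell type were present in both sets. All 30 high and 30 low naïve cells and all 28 and 28 pretreated cells had tags of fibroblast markers, and none of the 10 markers that passed the filter was 2-fold apart in either group. Of the 14 listed, 13 were in the annotation table, and Thy1 and Lum were at 0 in the high and low cells of both groups. For all marker lists, a gene outside that table counts as being at 0, and only windows within 1000 bp of a start are used. The summed level of the fibroblast markers ran from 131756 to 276738 normalised tags in high (median 183600) and from 15833 to 250032 in low naïve cells (median 171749), and from 117216 to 296751 (median 177562) and from 19161 to 281625 (median 154531) in the pretreated sets. Mature smooth muscle cells, which share the score genes, were looked for with 8 markers, 7 of them in the annotation table, and none passed the filter. Myh11, Des, Synpo2, Myocd and Myom1 were at 0 in the high and low cells of both groups. The other 3 (Smtn, Lmod1 and Actg2) together had tags in 14 of 30 high and 2 of 30 low naïve cells (summed level 0 to 10400, and 0 to 378), and in 15 and 2 of 28 pretreated cells (0 to 984, and 0 to 519). Tags of any of Smtn, Lmod1 and Actg2 were thus found in more high than low cells of both groups, while the defining myosin Myh11 was at 0. These 3 genes were not compared singly, and their part in the result was not tested.

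None of the 12 skeletal and cardiac muscle markers (6 in the annotation table) or 10 epithelial and mesothelial markers (7 in it) had a tag in the compared cells. Of the 7 pericyte markers (6 in the table), 6 were at 0, and the seventh, Cspg4, had tags in 1 low pretreated cell. Endothelial markers (7 of 8 in the table) had tags in no naïve and in 2 low pretreated cells, with Pecam1 and Cdh5 at 0. Leukocyte markers (6 of 9 in the table) had tags in 8 high and 13 low naïve cells and in 15 and 13 pretreated cells, with Ptprc at 0. Neural and glial markers (5 of 7 in the table) had tags in no high and 1 low naïve cell and in 6 and 3 pretreated cells. Adipocyte markers had tags in 6 and 8 naïve and in 11 and 4 pretreated cells. Chondrocyte and osteoblast markers were abundant by comparison, with tags in 27 of 30 high and all 30 low naïve cells and in all 28 and 28 pretreated cells. Their summed level ran from 0 to 74570 normalised tags (median 12230) in high and from 295 to 47927 (median 10649) in low naïve cells. In the pretreated sets it ran from 1815 to 76047 (median 14102) and from 427 to 76200 (median 23108). Of these 8 markers, 6 were in the annotation table. Spp1 (osteopontin) was the only one to pass the filter, with ratios of -0.08 and -0.41, while Acan, Col2a1, Sp7, Ibsp and Bglap were at 0. Whether any cell of these types was present, or had a part in the results, was not tested.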

How the data were processed

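The deposited files hold 1 peak list per cell. Per the file headers, the authors called peaks in each cell and on each strand with HOMER findPeaks (peak width 150 bp, at least 300 bp apart, tag threshold of 200, at least 2-fold over the surrounding 10000 bp). The signal deposited for each peak is the authors' normalised tag count, on a scale of 10000000 tags per cell, and a gene without a called peak is listed at 0. HOMER's deposited fraction, which says how tightly the tags of a peak cluster, enters no value printed here. Bowtie2, HOMER and mm9 are named in the submitters' processing notes. Read filters and duplicate handling are not given in the sources used here.

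Peaks were given to the 150 bp windows of the deposited RefSeq annotation, and gene values sum the gene-strand peaks of windows within 1000 bp of a start. Strands came from GENCODE vM21, for 18359 of 18460 genes. Cells with under 10% of the median total (230562.75 tags) were left out, 4 naïve and 11 pretreated. Each group was split by score into 3 parts, the lowest and highest being the low and high sets, and each cell weighs the same in a mean. The members, the gene lists and the rules were chosen with earlier results of these data known. Each set is 1 sample, so ratios have no test and no replicate check. Genes were named by list membership, as the first 12 in each direction among genes past 2-fold in both groups, and as the 10 most like the score. The ratio step was tested on simulated data with planted changes and counting error only. These data lack the other spread between cells and the uncalled peaks of the real data, so the test does not cover them. A pair of deposited matrices with 384 unnamed per-cell columns was not used here. Python 3.11.15, pandas 2.3.3, numpy 2.4.6, scipy 1.17.1 and matplotlib 3.10.9 were used. A few genes are not reported here.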

Additional observations from a re-analysis of the deposited data

Results flagged for a closer look

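Score genes had tags in windows more than 1000 bp from an annotated start, data that the score and the gene comparisons leave out. Their mean normalised tags in contractile-high naïve cells were 5849 for Acta2, 1737 for Tagln, 51.1 for Cnn1, 1019 for Tpm2 and 2026 for Myl9. In contractile-high pretreated cells they were 3301 for Acta2, 727 for Tagln, 70.1 for Cnn1, 730 for Tpm2 and 1412 for Myl9. Ndufs1, a subunit of respiratory complex I, lay on opposite sides in the groups, with a log2 ratio of -1.03 in naïve and 1.04 in pretreated cells. That difference was not tested, and the ratios were -0.65 without naïve cell 45 and 0.83 without pretreated cell 56.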

How the results depend on the processing

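Over 14 alternatives, 90 recomputed counts and medians stayed within 1.5 times (counts) or 0.25 (log2), and 38 moved further. Like counts could hold different genes: over all RefSeq windows 20 genes were again higher in both groups, but only 5 of the reported 20, the score of mean ranks kept 8 of 20 and 2 of 8, and the 1 gene found with 2 parts was none of the 20. Numbers below are genes at least 2-fold higher and lower in naïve cells, higher and lower in pretreated cells, and higher and lower in both, against 210, 185, 147, 164, 20 and 8 as reported. Adding 100 in place of 10 tags gave 134, 101, 71, 81, 8 and 2, and a minimum mean of 500 gave 75, 53, 49, 35, 7 and 2. With no minimum mean there were 275 higher and 269 lower genes in pretreated cells and 20 lower in both. Splitting each group in 2 parts gave 110, 103, 74, 91, 1 and 0, and median left-out ratios of 1.06 in naïve and 2.20 in pretreated cells. Comparing the outer 2 of 4 parts gave 316 higher naïve and 251 lower pretreated genes, 33 higher and 14 lower in both, and a left-out ratio of 4.19 in pretreated cells. All RefSeq windows gave 372 higher and 483 lower naïve genes, 304 lower pretreated genes, 28 lower in both, and a median of 0.79 for the other contractile genes in pretreated cells. Higher in both were 11 genes when cells were ranked within the deeper and shallower cells separately, 13 over cells with at least 50% of the median tags (left-out ratio 1.14 in naïve cells), and 10 without the 2 libraries that stood apart, an alternative chosen after seeing the data. Without each gene's highest cell the left-out ratio of pretreated cells was 3.61. Among genes reported past 2-fold, signs turned for Ddrgk1 in naïve cells (0.040 ranked within depth, 0.22 over all windows), for Snord15b (-1.03) and Cib1 (-0.38) in deeper naïve cells, for Exosc10 (-0.61) and Camk2d (-0.93, named after its values were seen) in naïve cells over all windows, and for Mmp3 in pretreated cells with a score of mean ranks (0.66). Smaller ratios also turned, among them Ppp1r12a in pretreated cells (-0.44 with 2 parts), Cryab in naïve cells (same sign in 9 of 14 alternatives) and Pdlim7 in both groups (0.44 naïve over all windows, -0.051 pretreated with 2 parts). The causes were not tested. With 1 sample per set, only called peaks listed and no molecular identifiers mentioned, low genes are limited by whether a peak was called at all. No paired analysis was possible because cell numbers are only names and nothing was tested.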
